A study of Sus scrofa with 24 samples.

Results

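Genes annotated to olfactory transduction, the pathway by which a nose cell turns an odour into an electrical signal, were followed in the ovary of the pig. The deposited gene table lists 18753 genes, of which 519 carry this KEGG term, and the 70 whose 12 read counts summed to 50 or more, chosen by that summed count, were taken as the members. Of these members, 34 were odorant receptors and 36 were signalling genes of the pathway. The summed count is a measured value, so the abundance of the members is a property of how they were chosen and is given below as description only.

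In olfactory neurons, an odorant bound to its receptor activates a G protein whose alpha subunit is encoded by GNAL. That G protein stimulates adenylyl cyclase 3 (ADCY3), and the cyclic AMP it makes opens a cation channel built from CNGA2, CNGA4 and CNGB1. Calcium entering through the channel opens the chloride channel ANO2, and calmodulin, phosphodiesterases, receptor kinases, arrestins and sodium-calcium exchangers end the response. Odorant receptors form the largest gene family of mammals, each olfactory neuron uses very few of them, and transcripts of some are known from tissues outside the nose, testis and oocytes among them. Many of the signalling genes, such as the calmodulins and GNB1, are used by nearly every cell and are no sign of an olfactory function.

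Ovaries came from healthy sows of the Chenghua breed at 4 stages: postnatal day 3 (Day 3), postnatal day 120 at the start of puberty (Puberty), 1 year of age and sexually mature (Year 1), and day 105 of pregnancy (Pregnancy). Each stage had 3 sows with 1 mRNA library each, made from frozen pieces of ovary with oligo(dT) capture. The age of the pregnant sows and the phase of the cycle at 1 year are not given in the sources used here. Differences between stages were tested on all 15699 genes that passed a filter on low counts, with edgeR's quasi-likelihood test and Benjamini-Hochberg adjustment over all of them. A gene was called changed where the adjusted p was under 0.05.

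Libraries held 14615493 to 16187916 expected counts, and 15792 to 17706 genes had a count above 0 in a library. FOXL2, a transcription factor of granulosa cells, was present in all 12 libraries at 8.28 TPM (transcript abundance per length and library total) or more. Year 1 replicate 1 and Pregnancy replicate 3 stood apart from their stage mates. STAR, which brings cholesterol into mitochondria for steroid synthesis, was at 50.68 TPM in the first of these, while its stage mates had 5294.42 and 5107.31 TPM. It reached 3948.57 TPM in the second, while its stage mates had 5.88 and 11.79 TPM. Results that rest on these libraries are given with and without them.

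Odorant receptor transcripts were most numerous in the neonatal ovary. Of 479 receptor genes with the term, 258, 290 and 268 had a count above 0 in the 3 Day 3 libraries. The Puberty libraries had 98, 122 and 99 such genes, the Year 1 libraries 70, 40 and 47, and the Pregnancy libraries 77, 73 and 46. The lowest Day 3 library thus held more receptor genes than the highest later library, while the totals of the libraries differed by no more than a ratio of 1.11. This order was not particular to receptors. Of genes outside the term with a summed count under 50, the Day 3 libraries held 1315 to 1420 and later libraries at most 922. Of all genes outside the term they held 17263 to 17398 and at most 16780. Over all receptor genes the normalised count was 155, 199.9 and 227 CPM (counts scaled to the library total) at Day 3, 35.7, 49.9 and 40.8 at Puberty, 29.6, 26.6 and 29.5 at Year 1, and 32.2, 33.2 and 21.6 in Pregnancy. Year 1 and Pregnancy overlapped in this share, Puberty lay above both, and Day 3 lay above all. In whole ovary, fewer cells of a type and less RNA per cell cannot be told apart.

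**Figure D1:**
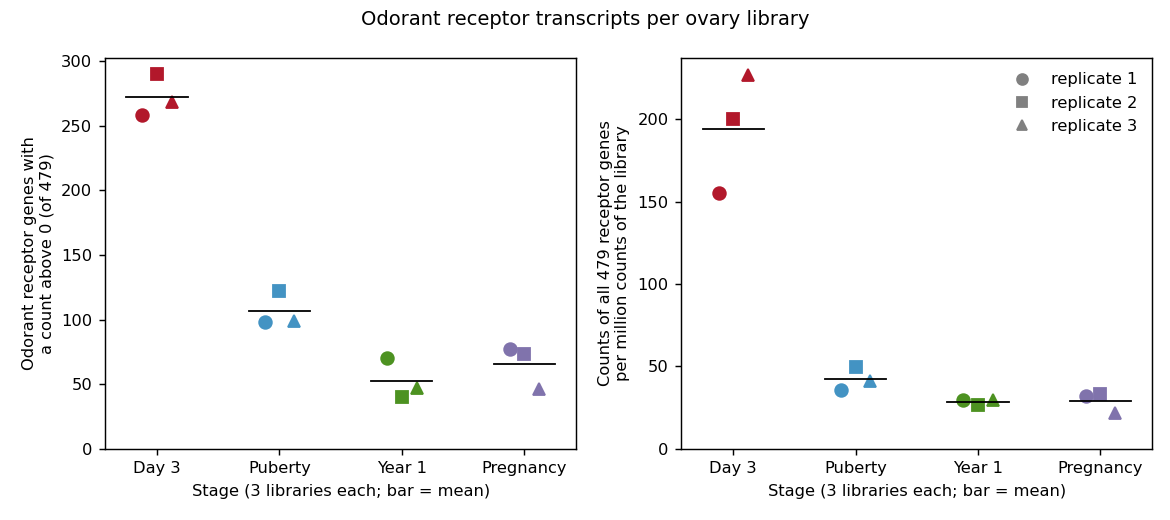
Number of the 479 odorant receptor genes with a count above 0 (left panel) and summed CPM of all receptor genes (right panel) for each of the 12 libraries, with bars at the stage means. The Day 3 libraries, with 258 to 290 genes and 155 to 227 CPM, lie above all 9 later libraries.

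Single receptors were close to the limit of detection. The 445 receptor genes below the minimum had a median summed count of 3 over all 12 libraries, 268 of them had under 5 counts in all, and only 1 passed the filter for testing. The summed count of 335 of these 445 (75.3%) was highest at Day 3, while 1244 of 2198 other genes below the same minimum (56.6%) were highest there. Day 3 held 74.6% of the counts of these low receptors and 50.4% of the counts of the other low genes. Of the 445, 206 had a count at Day 3 and in no later library. That number was not taken for the other low genes, so nothing is read from it. No count at Day 3 was found for 71 of the 445 and for 356 of the 2198 other low genes. The Day 3 counts were uneven among receptors: of the 479, the top 3 held 32.5% of the receptor counts of that stage and the top 10 held 53.4%. All these receptor genes together reached a summed level of 118 to 166 TPM at Day 3 and 9.33 to 28.5 TPM in the later libraries, well under the level of CALM2 alone.

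At the edge of the rule, the 3 members with the lowest summed counts were LOC100153672 (olfactory receptor 13F1-like) with 53, LOC100736607 (receptor 10A3) with 56.24 and LOC100514318 (receptor 3A1-like) with 56.68. Just outside it stood LOC110258146 (receptor 4B1-like) with 49.12, CNGA2 with 49 and LOC100523457, an olfactory guanylyl cyclase GC-D-like gene, also with 49. CNGA2, the principal subunit of the olfactory channel, had 14 counts at Day 3, 22 at Puberty, 0 at Year 1 and 13 during pregnancy, each over 3 libraries, and was not tested.

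Most member receptors fell from Day 3 to Puberty. Of the 34, 27 passed the filter and 20 were called lower at Puberty, against 17.2% of all genes tested. None was called higher, against 11.5% of all genes. The median log2 fold change of the 27 was -3.09, and that of all genes was 0.04. Against the mean of the 3 later stages, 21 receptors were called higher at Day 3 and none lower, where 24.1% and 22.0% of all genes were called in these directions. This second comparison shares the Day 3 and Puberty libraries with the first.

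The rule bears on these counts. A total of 24 member receptors had under 50 counts in the 9 later libraries in all and so could reach the minimum only with their counts at Day 3. They supplied 17 of the 20 calls, and the other 3 calls came from the 10 receptors with 50 or more later counts, of which 8 were tested. The count therefore describes the members and is not support for a general rule about receptors. Without Puberty replicate 1 receptor calls at Puberty dropped to 11 lower and 1 higher of the members tested, and without Year 1 replicate 1 they rose to 23 lower and 1 higher.

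LOC100523717 (olfactory receptor 4S1) had the highest mean level at Day 3 of all member receptors. Its values were 7.77, 4.87 and 14.27 TPM at Day 3, 0.36, 0.49 and 0.19 at Puberty, 0.10, 0 and 0.11 at Year 1, and 0.19, 0.24 and 0.08 in Pregnancy. All Day 3 libraries were above all later libraries, with replicate 3 the highest. At Puberty it was lower by a log2 fold change of -4.13 ± 0.77 (SE; edgeR adjusted p = 0.00375). LOC100515430 (receptor 4B1, on an unplaced scaffold) was nearly as high, at 7.13, 10.97 and 8.77 TPM at Day 3, and reached at most 0.53 TPM in the 9 later libraries. Its log2 fold change to Puberty was -4.79 ± 1.17 (edgeR adjusted p = 0.0128; 0.0543 without Puberty replicate 1), and the Day 3 libraries again stood clear of the rest.

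LOC106510393 (receptor 10AD1-like, chromosome 5) had 2.60, 8.26 and 7.30 TPM at Day 3, and the later libraries ranged from 0 through a median of 0.06 to 0.15 TPM. Its fall to Puberty was the steepest of the members tested, with a log2 fold change of -6.17 ± 1.06 (edgeR adjusted p = 0.0026). LOC102161787, also named 10AD1-like and on the same strand of chromosome 5, had 0.57, 4.60 and 4.37 TPM at Day 3 and no more than 0.20 TPM later. In both, Day 3 replicate 1 was the lowest of its stage but still above every later library. In each of the pair 5 of 12 counts were not whole numbers, as RSEM gives where it divides reads that match several genes, and the split between them is uncertain.

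LOC110259272 (4B1-like) had 3.04, 4.95 and 5.13 TPM at Day 3 and 0.03, 0.05 and 0.14 at Puberty, a log2 fold change of -5.21 ± 0.71 (edgeR adjusted p = 0.00164). LOC100516963 (another receptor gene, on chromosome 3) had 1.76, 2.45 and 2.99 TPM at Day 3 and 0.05, 0.10 and 0.10 at Puberty, a log2 fold change of -4.43 ± 0.65 (edgeR adjusted p = 0.00217). LOC100522977 (4B1-like) had 4.09, 6.80 and 3.30 TPM at Day 3 and 0.11, 0.41 and 0.24 at Puberty, a log2 fold change of -3.86 ± 0.67 (edgeR adjusted p = 0.00273). In these 3 receptors the Day 3 libraries lay above all 9 later ones, and the first and second had no count in any Year 1 library. LOC100738112 (10AC1-like) had 2.88, 3.43 and 3.21 TPM at Day 3, 0.54, 0.95 and 0.13 at Puberty and at most 0.21 afterwards, with no overlap between Day 3 and later libraries. It fell to Puberty (log2 fold change -2.25 ± 0.71, edgeR adjusted p = 0.0367), a call lost in 5 of 12 fits that left out 1 library (highest edgeR adjusted p = 0.102, without Puberty replicate 1).

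Not every receptor followed this course. LOC100525417 (2A1/2A42-like), the receptor with the highest summed count, was at 4.67, 4.81 and 8.19 TPM at Day 3 and 1.77, 1.84 and 1.42 at Puberty. It stayed at 1.37, 1.76 and 1.32 TPM at Year 1 and 0.85, 1.37 and 0.86 in Pregnancy, so that it was measured in every library. Its log2 fold change to Puberty was -1.48 ± 0.32 (edgeR adjusted p = 0.00705), the Day 3 libraries being highest without overlap. LOC110260676 (6C3-like) ran from 2.14 to 2.57 TPM at Day 3 and from 0.75 to 2.04 TPM later, with Day 3 just above the rest, and was not called in any comparison (edgeR adjusted p = 0.502 for Puberty against Day 3 and 0.113 for Day 3 against later stages).

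LOC100738306 (receptor 2D3) was highest at Puberty, with 1.64, 4.08 and 3.43 TPM against 1.71, 1.57 and 1.26 at Day 3, 1.55, 0.83 and 0.44 at Year 1 and 2.49, 2.39 and 1.24 in Pregnancy. These ranges overlapped, and the log2 fold change from Day 3 to Puberty of 1.33 ± 0.46 missed the threshold (edgeR adjusted p = 0.0526). LOC100514309 (149-like) was at 2.85 to 3.14 TPM at Day 3 and 0.54 to 3.72 TPM later, and Puberty replicate 2 exceeded every Day 3 library. LOC100737531 (receptor 51E1, whose human counterpart is known from the prostate) was highest in Year 1 replicate 1 at 1.39 TPM and spanned 0.11 to 0.88 TPM at Day 3. Neither was called.

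LOC100623188, named a putative 8G3 pseudogene, was at 0 in 10 libraries, and Year 1 replicates 2 and 3 had 6.58 and 19.16 TPM. It did not pass the filter with all 12 libraries, and without Year 1 replicate 1 and Pregnancy replicate 3 it was called higher at Year 1 than at Puberty (edgeR adjusted p = 0.00257). Its annotated span lies inside that of STEAP1 on the same strand, and the 2 libraries are those of Year 1 with high STAR. The part of STEAP1 reads, or of what sets these 2 libraries apart, in the value of LOC100623188 was not tested.

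**Figure D2:**
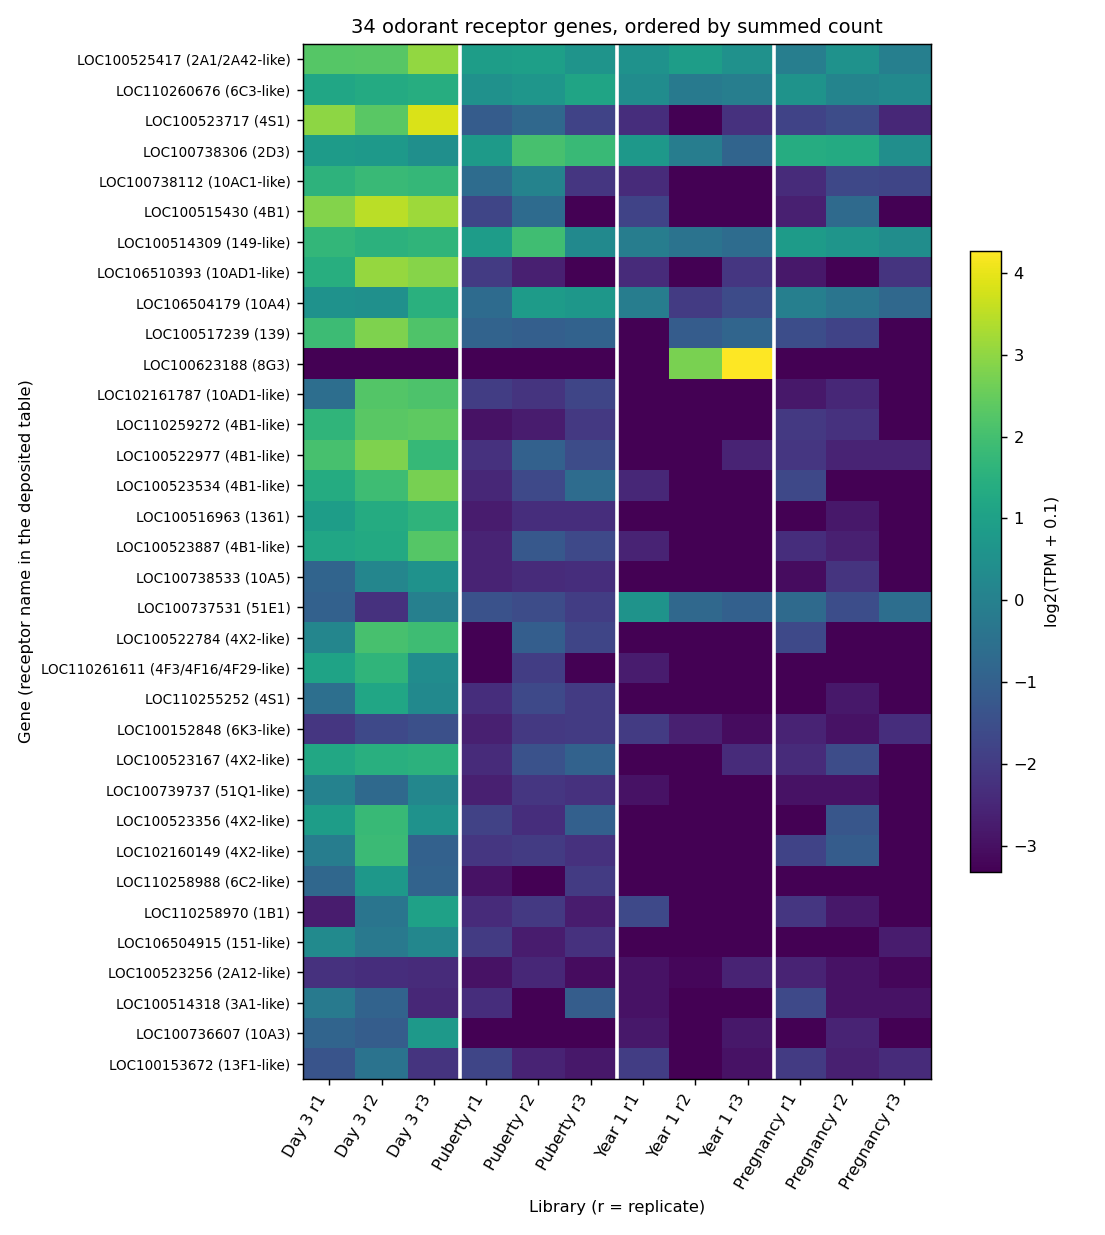
Level of each of the 34 member receptors, as log2(TPM + 0.1), in each of the 12 libraries, ordered from the highest summed count at the top; white lines divide the stages. Most rows are bright in the 3 Day 3 columns and dark in the 9 later ones, whereas LOC100738306 (2D3) and LOC100737531 (51E1) are not highest at Day 3 and LOC100623188 (8G3) appears in 2 Year 1 libraries.

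Across all 34, the mean TPM at Day 3 was over 10 times the mean of the 9 later libraries for 23 receptors, and under that mean for 3 (LOC100738306, LOC100737531 and LOC100623188). The median ratio was 19.4. All 3 Day 3 libraries lay above all 9 later ones in TPM for 22 of the 27 tested receptors, and for 36.4% of all tested genes. With scaling for library composition (TMM), the same held for 21 of 27 receptors and for 20.5% of all genes. The rule largely fixes these receptor counts, and nothing is read from them against all genes: in TPM the order held for 21 of the 24 receptors with under 50 later counts and for 4 of the 10 with more. The 10 tested receptors with no count in Year 1 or Pregnancy make a fitted fold change against later stages depend on an added prior count. With those stages set at 3 counts over their 3 libraries, the median log2 difference of Day 3 over the later stages was 4.18, and the fitted median was 4.88.

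The members lay in several places of the Sscrofa11.1 genome, with 10 on chromosome 9, 7 on chromosome 2, 3 on chromosome 5 and 6 on unplaced scaffolds. Over all 28 receptor genes listed on chromosome 2, 90.7% of counts came from Day 3. The share was 87.2% for the 5 on chromosome 14, from only 34 Day 3 and 5 later counts, and 85.55% for the 138 not placed on a chromosome. It was 51.2% for the 145 on chromosome 9 and lowest, at 46.5%, for the 14 on chromosome 4. On chromosome 9, LOC100525417 and LOC100738306 alone had 1216 and 563 of the 2792 later counts. The 7 members on chromosome 2 stood in one stretch within 200 kb, with 2 further receptor genes below the minimum. This stretch had 1612 counts over the 3 Day 3 libraries and 141 over the 9 later ones.

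Among the 7, LOC100522784, LOC100523534, LOC100523717 and LOC100523167 were annotated on the minus strand with 5′ ends between 14516233 and 14516245, within 12 bases of each other. Their spans ran from LOC100522784 at 14400558 to 14516233, the longest, to LOC100523534 at 14492468 to 14516241, and overlapped one another. They were the only receptor genes of the 479 whose annotated 5′ ends came within 50 bases of another on the same strand. All 7 members were called lower at Puberty, where 17.2% of all genes tested were, and LOC100523356 only just (edgeR adjusted p = 0.0499). All but LOC100523717 had 7.76 to 13.5 counts in all in the libraries after Day 3. Those receptors could reach the minimum of 50 only with their Day 3 counts. The rule largely fixes their calls, and nothing is read from them against all genes. The 4 with close 5′ ends had 1217 of their 1326 counts at Day 3. As their spans overlap and a read can match several of them, how the counts divide among the 7 is uncertain, and they are not 7 independent observations. PTPRJ, a receptor tyrosine phosphatase gene and the nearest gene without the pathway term, was not called between Day 3 and later stages (log2 fold change 0.27, edgeR adjusted p = 0.141).

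**Figure D3:**
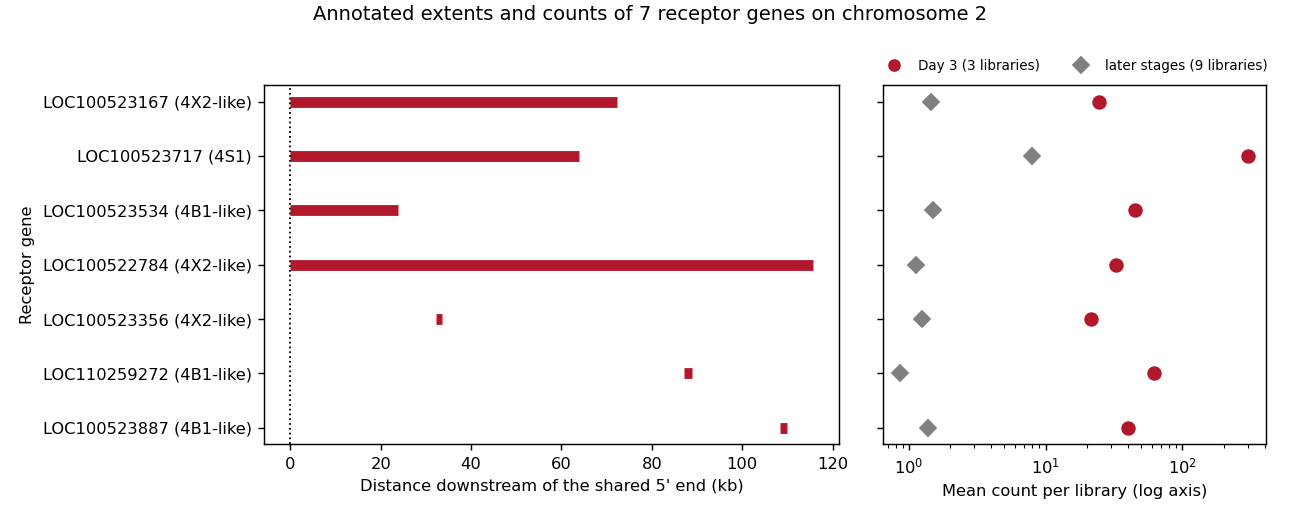
Left, annotated extents of the 7 member receptors on chromosome 2, as distance in kb downstream of the 5′ end that 4 of them share (dotted line). Right, mean count per library on a log axis, for the 3 Day 3 libraries (circles) and the 9 later libraries (diamonds); every receptor of the group is higher at Day 3.

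Some genes near other member receptors were also high at Day 3, whether or not the receptor was. The nearest gene without the term to LOC100738306, LOC106504179 and LOC100738533 was ZNF215, with a mean of 24.4 TPM at Day 3 and 0.51 TPM at Year 1. Of these receptors only LOC100738533 was called higher at Day 3 than later (edgeR adjusted p = 0.000738), and LOC100738306 was highest at Puberty. The nearest to LOC100517239 and LOC100514318 was SPATA22, a gene of meiotic recombination, with 10.7 TPM at Day 3 and at most 0.54 TPM later. LOC100517239 was called higher at Day 3 and LOC100514318 was not (edgeR adjusted p = 0.00111 and 0.0646). LOC100738533, LOC100517239 and LOC100514318 had 18, 47 and 23 counts in all in the libraries after Day 3. These receptors could reach the minimum for members only with their Day 3 counts. The rule largely fixes the calls of LOC100738533 and LOC100517239, and nothing is read from these calls against the neighbouring genes. ARHGEF5, near LOC100525417, was at 1.68 TPM at Day 3 and 0.11 TPM or less later. LOC100514309, LOC100623188 and LOC106504915, 3 receptors on chromosome 9, lie within the annotated span of STEAP1. That gene was called higher at Day 3 than later (log2 fold change 2.02, edgeR adjusted p = 0.00473). Whether counting used the strand is not given in the sources used here, so reads of overlapping genes cannot be told apart.

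Among the 9 members of the cascade from G protein to channels, Day 3 and later ovaries differed in both directions. Of these, 8 were tested. GNAL and ANO2 were called higher at Day 3 than in later stages, ADCY3, CNGA4 and GNB1 were called lower, and GNG7, GNG13 and CNGA3 were not called. Of all genes tested, 24.1% were called higher and 22.0% lower in this comparison, so calls in both directions are not particular to the cascade. From Day 3 to Puberty only GNAL (lower) and ADCY3 (higher) were called, where 28.7% of all genes were called in either direction.

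GNAL, the olfactory G protein alpha subunit that also serves neurons of the striatum, was at 6.49, 5.77 and 6.23 TPM at Day 3, 1.31, 1.31 and 1.36 at Puberty, 1.27, 1.08 and 0.93 at Year 1, and 0.77, 0.93 and 0.92 in Pregnancy. The Day 3 libraries were tightly grouped and far above all others. It fell to Puberty (log2 fold change -1.97 ± 0.26, edgeR adjusted p = 0.000758), and this call was kept in all 12 fits that left out 1 library. None of its 12 counts was a whole number, so some of its reads were shared with another gene. ADCY3, the cyclase that follows it, went the other way: 25.47, 25.74 and 38.65 TPM at Day 3, 57.81, 49.78 and 86.12 at Puberty, 52.64, 76.11 and 68.18 at Year 1, and 62.83, 43.02 and 34.17 in Pregnancy. Only Pregnancy replicate 3 overlapped with Day 3, and the rise to Puberty was 1.43 ± 0.31 on the log2 scale (edgeR adjusted p = 0.00731).

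Channel genes were low. ANO2 was at 6.69, 5.02 and 3.31 TPM at Day 3, 1.18, 1.02 and 1.19 at Puberty, and 0.12 to 1.10 TPM in the 6 libraries of Year 1 and Pregnancy, without overlap. It was called higher at Day 3 than in later stages (log2 fold change 2.13 ± 0.52, edgeR adjusted p = 0.00701) but not between Day 3 and Puberty (-1.81 ± 0.71, edgeR adjusted p = 0.0779). CNGA4 was at 0.42 to 0.61 TPM at Day 3, 0.61 to 0.73 at Puberty, and highest in Year 1 replicates 2 and 3 and Pregnancy replicate 3, at 1.62, 1.66 and 1.22 TPM. Its lower level at Day 3 (-1.38 ± 0.45, edgeR adjusted p = 0.029) was lost in 3 of 12 fits that left out 1 library, namely without Day 3 replicate 1, 2 or 3 (edgeR adjusted p = 0.0948, 0.121 and 0.0706). CNGB1 was at 0.17, 0.35 and 1.13 TPM at Day 3 and at most 0.16 TPM later, and its 91 counts did not pass the filter.

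CNGA3, the channel subunit of cone photoreceptors, carries the same pathway term. It was at 1.37, 0.65 and 2.60 TPM at Day 3, 10.36, 12.95 and 6.20 at Puberty, 4.11, 0.05 and 0.13 at Year 1, and 8.97, 13.78 and 3.08 in Pregnancy. With such spread within stages it was not called in any comparison of all 12 libraries (edgeR adjusted p = 0.0775 for Puberty against Day 3). Of the G protein partners, GNB1 was among the most abundant members at 286 to 321 TPM at Day 3 and 231 to 318 TPM later. It was called lower at Day 3 with composition scaling (-0.47 ± 0.12, edgeR adjusted p = 0.0075), although its mean TPM was higher there. Scaled by library size alone its log2 difference was -0.07 (edgeR adjusted p = 0.713), and 2 of 12 fits that left out a library also lost the call. GNG7, at 17.3 to 19.6 TPM at Day 3 and 9.04 to 21.4 TPM later, and GNG13, at 0.15 to 0.55 TPM at Day 3 and 0 to 1.56 TPM later, overlapped between stages and were not called.

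**Figure D4:**
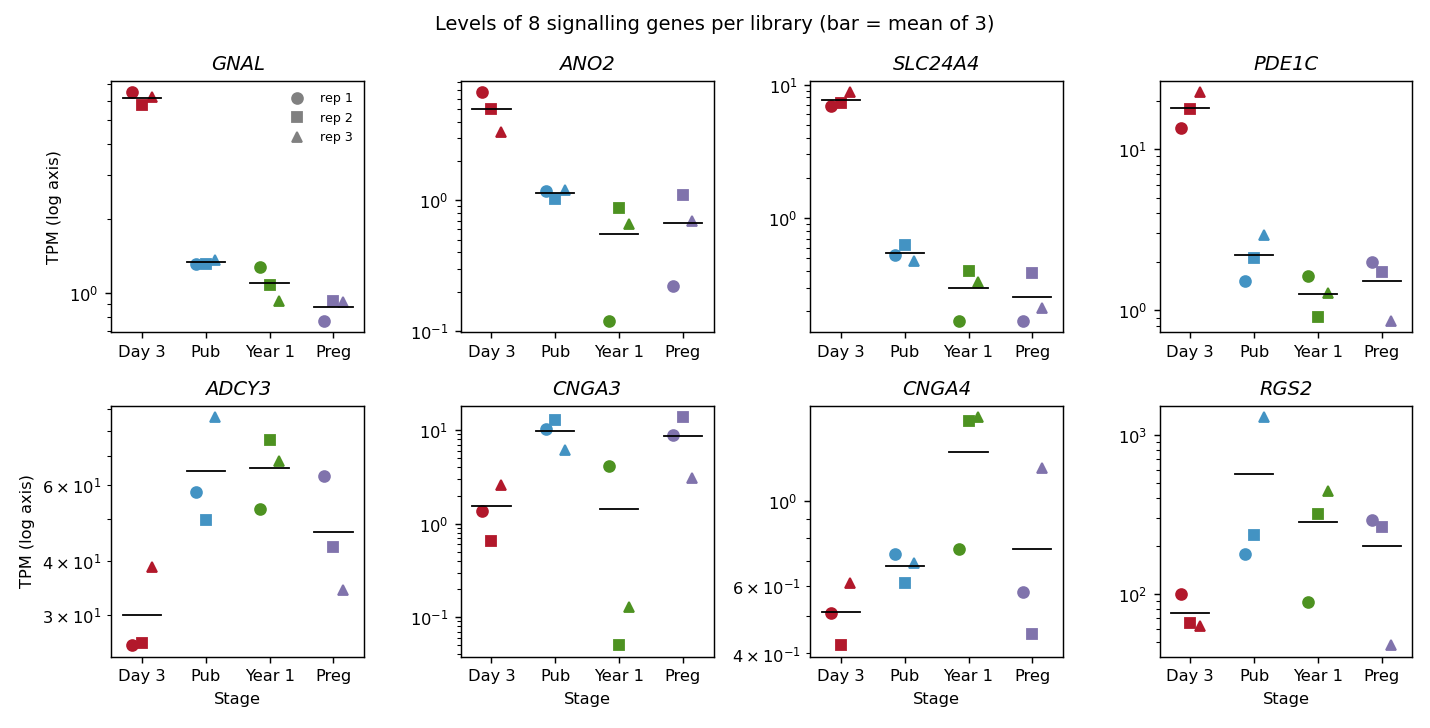
TPM on log axes of 8 signalling genes in each of the 12 libraries, with bars at stage means. GNAL, ANO2, SLC24A4 and PDE1C are highest in all 3 Day 3 libraries; ADCY3 is low at Day 3, and CNGA3, CNGA4 and RGS2 spread widely within Year 1 or Puberty.

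The steepest change among signalling members tested was that of an exchanger. SLC24A4, the sodium, potassium and calcium exchanger that clears calcium from olfactory cilia in mice, was at 6.96, 7.31 and 8.72 TPM at Day 3 and at 0.53, 0.63 and 0.48 at Puberty. It was at 0.17, 0.40 and 0.33 TPM at Year 1 and 0.17, 0.39 and 0.21 in Pregnancy, so that every Day 3 library was over 10 times any later one. Its log2 fold change to Puberty was -3.45 ± 0.42 (edgeR adjusted p = 0.00056), and that of Day 3 over later stages was 3.83 ± 0.29 (edgeR adjusted p = 6.13e-06). SLC8A2, a sodium-calcium exchanger of neurons, was at 2.99, 3.72 and 4.84 TPM at Day 3 and 0 to 0.91 TPM later, and was called higher at Day 3 (2.41 ± 0.59, edgeR adjusted p = 0.00706). The exchangers SLC8A1 and SLC8A3 were not called.

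Of 9 genes that shut the signal off, PDE1C and PDE1B were called higher at Day 3 than later, GRK2, GRK3, ARRB1, NCALD and RGS2 were called lower, and ARRB2 and PDE1A were not called. Of all genes 46.0% were called in this comparison. PDE1C, the calmodulin-dependent phosphodiesterase of olfactory cilia, was at 13.57, 17.61 and 22.47 TPM at Day 3, 1.52, 2.11 and 2.93 at Puberty, and 0.86 to 1.98 TPM in the other 6 libraries. There was no overlap, and the log2 fold change to Puberty was -2.40 ± 0.30 (edgeR adjusted p = 0.000648). Its counts, too, were not whole. PDE1B, its relative, was at 14.2 to 29.3 TPM at Day 3 and 2.02 to 10.3 TPM later (1.14 ± 0.29 higher at Day 3 on the log2 scale, edgeR adjusted p = 0.00932).

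RGS2, which can inhibit ADCY3, varied widely within stages: 99.53, 66.01 and 62.92 TPM at Day 3, 177.99, 235.40 and 1290.81 at Puberty, 88.72, 317.67 and 440.88 at Year 1, and 292.92, 262.97 and 47.41 in Pregnancy. Puberty replicate 3 was the highest by far, and Year 1 replicate 1 and Pregnancy replicate 3 fell within or below the Day 3 range. Its rise to Puberty of 3.20 ± 0.92 on the log2 scale (edgeR adjusted p = 0.0251) was lost without Puberty replicate 3 (edgeR adjusted p = 0.117) and in 3 of the other 11 fits that left out a library. Its lower level at Day 3 than later was lost without Day 3 replicate 1, 2 or 3 (edgeR adjusted p = 0.06, 0.088 and 0.0869). GRK2 and ARRB1, a receptor kinase and an arrestin used by many G protein-coupled receptors, rose to Puberty by 0.71 ± 0.14 and 0.96 ± 0.21 on the log2 scale (edgeR adjusted p = 0.00543 and 0.00862). These small rises missed the threshold when scaled by library size alone (edgeR adjusted p = 0.0873 and 0.0586). GRK3, the kinase known to act on odorant receptors in mice, was at 4.16 to 4.89 TPM at Day 3 and 2.41 to 5.69 TPM later. Its call as lower at Day 3 (-0.50 ± 0.14, edgeR adjusted p = 0.0162) was lost with library size scaling (-0.10, edgeR adjusted p = 0.673) and in 2 of 12 fits that left out a library.

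Calmodulin transcripts were among the most abundant members. CALM2 was at 446 to 539 TPM at Day 3 and 279 to 468 TPM later, and CALM3 at 334 to 372 TPM and 148 to 301 TPM. Neither was called in any comparison. CAMK2A, the calmodulin-dependent kinase subunit typical of neurons, was at 11.31, 13.14 and 11.91 TPM at Day 3 and 0.29 to 4.54 TPM later, and was called higher at Day 3 (2.18 ± 0.51, edgeR adjusted p = 0.00609). CAMK2B, CAMK2D, CAMK2G and CALML4 were not called in any comparison.

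The kinases that answer to cyclic nucleotides split. PRKG1, the cyclic GMP-dependent kinase of smooth muscle, was at 3.07, 2.47 and 4.04 TPM at Day 3, 8.06, 7.26 and 7.32 at Puberty, and 4.18 to 8.60 TPM afterwards. All later libraries lay above Day 3, the only tested member of which this held in TPM, against 3.53% of all genes tested. The rise to Puberty was 1.71 ± 0.27 on the log2 scale (edgeR adjusted p = 0.00196). Of 10 smooth muscle markers, ACTA2 and MYH11 among them, 6 were also called higher at Puberty, where 11.5% of all genes were. The 10 had summed levels of 557 to 840 TPM at Day 3 and 1041 to 4737 TPM later. Among the later libraries the order differed. The sum was highest in Year 1 replicate 1, where PRKG1 was at 5.10 TPM. PRKG1 was highest in Pregnancy replicate 1, where the sum was 2469 TPM. The part of smooth muscle in the result was not tested. PRKG2 went down, from 1.19, 0.88 and 0.63 TPM at Day 3 to 0.10, 0.25 and 0.30 at Puberty (-1.72 ± 0.47, edgeR adjusted p = 0.021), a call kept in 8 of 12 fits that left out a library. The protein kinase A subunits PRKACA and PRKACB, at 48.3 to 56.2 and 21.9 to 23.4 TPM at Day 3, were not called.

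PDE2A, a phosphodiesterase stimulated by cyclic GMP, rose from 16.81, 14.85 and 17.74 TPM at Day 3 to 22.92, 23.38 and 34.30 at Puberty (1.03 ± 0.18, edgeR adjusted p = 0.00273). The TPM ranges of Day 3 and Year 1 overlapped. The membrane guanylyl cyclase GUCY2D fell from 1.28, 1.79 and 2.05 TPM to 0.50, 0.46 and 0.71 (-1.28 ± 0.37, edgeR adjusted p = 0.0248), and stayed at 0.29 to 0.73 TPM in the 6 libraries after Puberty. The call was lost in 4 of 12 fits that left out 1 library (highest edgeR adjusted p = 0.0881, without Puberty replicate 1).

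**Figure D5:**
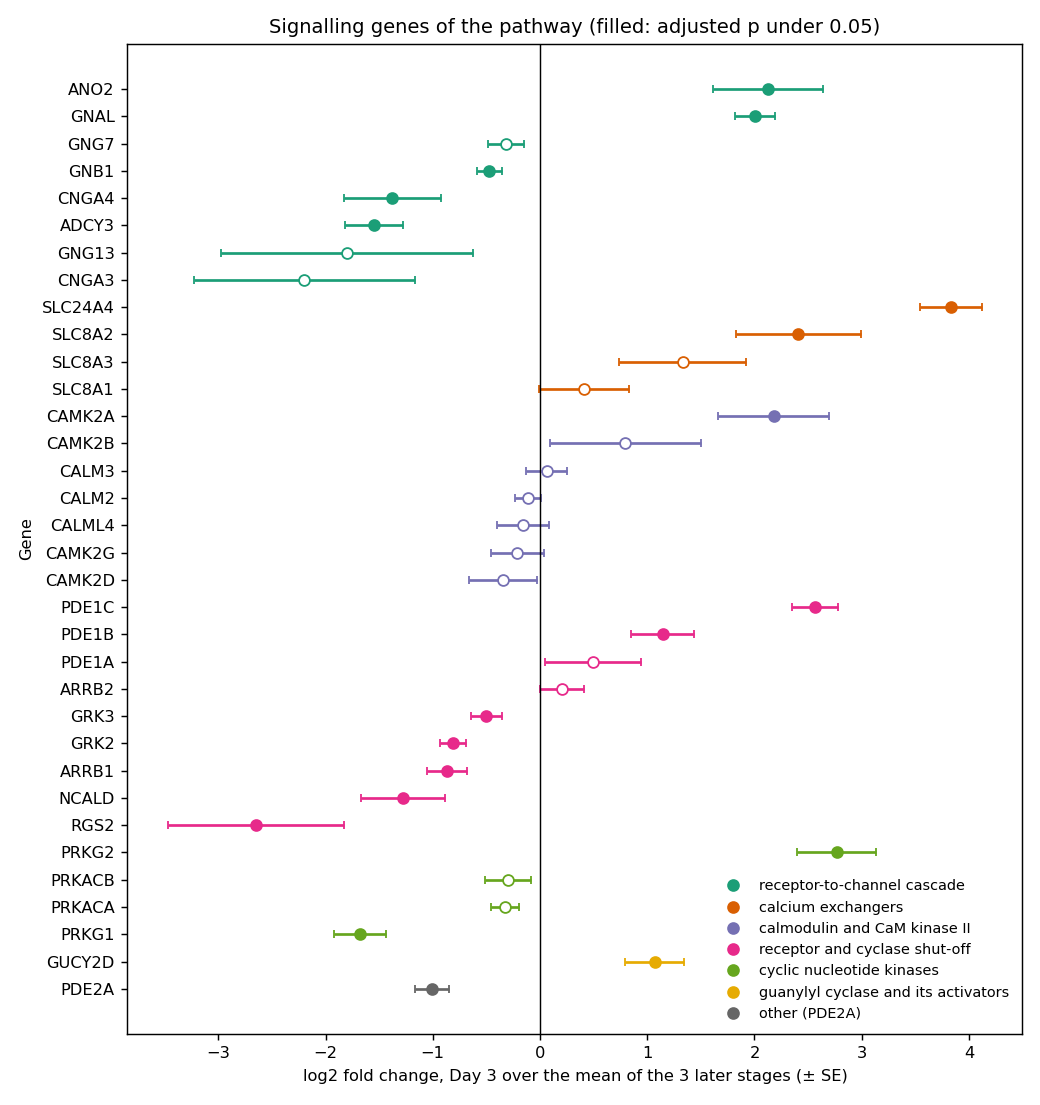
Log2 fold change (± SE) of Day 3 over the mean of the 3 later stages for 34 of the signalling members tested, coloured by role, with filled points where the edgeR adjusted p was under 0.05. SLC24A4 at 3.83 is the largest rise at Day 3 and RGS2 at -2.65 the lowest value; 9 filled points lie to the right and 10 to the left of 0.

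Over the 35 signalling members tested, 9 were called higher at Day 3 than in later stages and 11 lower, where 24.1% of all genes were called higher and 22.0% lower. The median log2 fold change was -0.21 (all genes, -0.07). To Puberty 7 were called higher and 5 lower, where 11.5% and 17.2% of all genes were. The counts of higher and lower depended on the scaling: with library size alone the median of all genes for Day 3 over later stages moved to 0.34, and the signalling calls became 11 higher and 6 lower. The receptor calls under that scaling were 24 higher and 0 lower. On the composition-scaled values, all Day 3 libraries lay above all later ones for 9 of the 35 signalling members and below them for 8, where 20.5% and 17.5% of all genes did so. In TPM 11 of the 35 lay above.

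Between the later stages few members could be told apart. From Puberty to Year 1 none of the 62 tested was called by edgeR, where 0.00637% of all genes were called higher and 0.0191% lower (0.0255% in all), and 19 had an unadjusted p under 0.05. DESeq2 called 9 and limma voom called 31. Of the 27 receptors tested, 24 had a negative log2 change, but 9 of the 27 had no count in Year 1. The median was -2.53 as fitted and -1.27 with those genes set at 3 counts over the stage. From Year 1 to Pregnancy 1 member was called, where 1.34% of all genes were called higher and 1.62% lower (2.96% in all). It was PRKG2, at 0.22, 0.16 and 0.08 TPM at Year 1 and 0.02 in each Pregnancy library (-2.98 ± 0.63 on the log2 scale, edgeR adjusted p = 0.046), and the call was kept in only 2 of 12 fits that left out a library.

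When both libraries that stand apart were omitted, 24 members were called from Puberty to Year 1 and 21 from Year 1 to Pregnancy, of 67 tested, while the calls over all genes rose to 8262 and 8005 of 16014. Without them CNGA3 fell to Year 1 and rose to Pregnancy (log2 fold changes -6.17 ± 0.76 and 6.63 ± 0.79, edgeR adjusted p = 0.000223 and 0.000191). The calcium exchanger SLC8A1, at 0.89, 1.04 and 1.28 TPM at Puberty, 3.26 and 3.82 TPM in the 2 remaining Year 1 libraries and 1.02 and 1.00 TPM in the 2 remaining Pregnancy libraries, rose and fell again (log2 fold changes 2.29 ± 0.15 and -2.11 ± 0.17, edgeR adjusted p = 1.01e-05 and 3.44e-05). NCALD, a calcium sensor of neurons, changed in the same order, with 1.43 ± 0.19 and -2.24 ± 0.22 (edgeR adjusted p = 0.000298 and 7.42e-05). SLC8A1 and NCALD moved with the luteal and steroidogenic markers and CNGA3 moved against them. The summed level of those 9 markers was 1236 to 1916 TPM at Puberty, 25752 and 22150 TPM in Year 1 replicates 2 and 3, and 566 and 644 TPM in Pregnancy replicates 1 and 2. The part of luteal tissue in the result was not tested.

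Genes that mark olfactory neurons but lie outside the term gave a mixed picture. OMP, the defining marker of mature olfactory neurons, was at 0 in 10 of 12 libraries, all 3 of Day 3 among them, and at most 0.09 TPM. Of 17 such genes listed, 14 were measured and 10 tested. At Puberty 3 were called lower and 1 higher, where 17.2% and 11.5% of all genes were. The median log2 fold change of the 10 was -0.20, and the genes named next are the 3 called lower. RTP1, which helps odorant receptors reach the cell surface, was at 1.05, 1.45 and 2.48 TPM at Day 3 and at most 0.14 TPM in the 9 later libraries (-3.65 ± 0.74 to Puberty, edgeR adjusted p = 0.00564). REEP1, of a related function, and LHX2, a transcription factor that mouse olfactory neurons need, also fell (-1.66 ± 0.38 and -2.60 ± 0.70, edgeR adjusted p = 0.00983 and 0.0189).

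Other cell types changed between Day 3 and later ovaries as well, in both directions. At Puberty 17.2% of all genes were called lower and 11.5% higher. Granulosa markers were called higher in 8 of 12 and luteal and steroidogenic markers in 5 of 9, with none lower. Of 10 endothelium markers 3 were called higher and 1 lower. Of 17 oocyte markers tested, 13 were called lower at Puberty, and their summed level was 2212 to 4078 TPM at Day 3, 214 to 308 at Puberty, 24.9 to 98.9 at Year 1 and 46.8 to 249.7 in Pregnancy. Motile cilia markers were called lower in 8 of 11, from 47.0 to 108.8 TPM at Day 3 to 9.01 TPM or less later. Surface epithelium markers were called lower in 6 of 9, from 652 to 831 TPM at Day 3 to at most 229 TPM later. Nerve and glia markers were called lower in 3 of 10, and their summed level overlapped between stages, with 405 to 493 TPM at Day 3 and up to 1127 TPM in Pregnancy replicate 3. The oocyte, motile cilia and surface epithelium sets were higher at Day 3 in every library, as most member receptors were, and their part in the result was not tested.

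The authors' deposited table, which tests each pair of stages with DESeq2, lists 45 of the 70 members with a q-value under 0.05 between Puberty and Day 3, 12 higher and 33 lower, and 8532 of all genes. For receptors it lists 23 lower and 1 higher, and for signalling members 10 lower and 11 higher. According to the authors' deposited table, 4 members pass between Year 1 and Puberty and 1 between Pregnancy and Year 1, where 1980 and 779 of all 18753 genes pass.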

How the data were processed

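Per the submitters' processing notes, RSEM 1.3.1 quantified reads mapped by Bowtie2 2.3.4.3 on the Sscrofa11.1 build, and the authors deposited 1 table with expected counts and TPM per gene in each of the 12 mRNA libraries. The authors' log2 fold changes and q-values in the deposited table came from DESeq2 1.4.5, per the same notes. The strand used in counting is not given in the sources used here. Expected counts were rounded to whole numbers and tested with edgeR 4.0.16 in R 4.3.3 (TMM factors 0.75 to 1.25, common biological coefficient of variation 0.4) on the 15699 genes passing filterByExpr with a minimum count of 10. All 12 libraries entered 1 fit. The threshold was an adjusted p of 0.05, and the SE is the log2 fold change divided by the root of the F statistic. TPM values describe levels. TMM scaling lowers Day 3 relative to TPM, so that small differences can change sign between both. Alternatives used DESeq2 1.42.0, limma 3.58.1 (voom), other scalings and filters, a replicate block and omitted libraries; scaling by library size only was chosen after seeing the data. The code was tested on simulated data. Named genes are the cascade members, the 8 rises and 8 falls with the lowest adjusted p per comparison, the 5 highest in mean TPM, the 8 receptors with the highest summed count, the 3 genes on either side of the minimum and the lowest p of each role; further members and marker genes were named after their values were seen. The members and all marker lists were chosen with earlier results of these data known. All 18753 gene IDs matched RefSeq, and 16832 had the same coordinates. The 12 small RNA libraries are not analysed here. The values of 1 member, which is counted in the totals, are not reported here.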

Additional observations from a re-analysis of the deposited data

How the results depend on the processing

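Calls of members between Day 3 and Puberty (32 of 62 tested with all libraries) numbered 17 with a minimum count of 50 and 17 among members with 200 or more counts. They numbered 28 under a replicate block and 45 with Year 1 replicate 1 and Pregnancy replicate 3 both omitted. The minimum count of 50 left 38 members tested, so fewer calls there also reflect fewer tests. For Day 3 against later stages (41) member calls numbered 24 with the minimum count of 50 and 25 among members with 200 or more counts. For any difference among stages (40) they numbered 23 and 24. Between Puberty and Year 1 (0) DESeq2 gave 9, voom 31 and the fit without both libraries 24. Between Year 1 and Pregnancy (1) there were 0 with upper-quartile scaling, library size only, no count filter, a minimum of 50, only the 2 stages fitted, the replicate block and the 200-count members, 7 with DESeq2, 26 with voom and 21 without both libraries.

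Over all genes, Puberty against Day 3 (4509) gave 9222 with voom, 7872 with only the 2 stages and 8378 without both libraries. Year 1 against Puberty (4) gave 3302 with DESeq2, 9352 with voom, 0 with only 2 stages, 0 under the replicate block and 8262 without both. Pregnancy against Year 1 (465) gave 291 with library size only, 131 with no filter, 2891 with DESeq2, 8825 with voom, 0 with 2 stages, 0 under the block and 8005 without both. Day 3 against later stages (7227) gave 10877 and any difference (7220) gave 13454 with voom, and the latter gave 12249 without both. Day 3 calls split 3778 higher and 3449 lower with TMM, 4253 and 2498 with upper quartile, and 5494 and 1384 with library size only.

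Leaving out 1 library moved member calls for Puberty against Day 3 from 21 (without Puberty replicate 1) to 44 (without Year 1 replicate 1), for Year 1 against Puberty from 0 to 17, for Pregnancy against Year 1 from 0 to 16, for Day 3 against later from 36 to 47 and for any difference from 31 to 54. All-gene calls ranged from 2644 (without Day 3 replicate 2) to 6128, 0 to 6159, 0 to 4913, 4913 to 8920 and 4544 to 10583 in the same order, and the upper end of each came without Year 1 replicate 1. GNG13 for Day 3 against later stages (-1.80) ranged from -2.46 to 0.21 and turned positive without Year 1 replicate 1, and was 0.12 without both libraries. GNG7 (-0.31) became 0.088 with library size only. The cause was not tested. Of 52 named results, 575 of the values without 1 library kept direction and side of the threshold, 45 lost and 3 gained a call. Same-numbered libraries correlated from -0.393 to 0.402 in their deviations and 4 of 12 were closest to their own number. The main fit did not pair libraries by number, and these values cannot exclude a pairing. The replicate block also lost RGS2 at Puberty (edgeR adjusted p = 0.0671) and PRKG2 in Pregnancy (edgeR adjusted p = 0.0893). Depth limits single receptors, most of which have under 5 counts.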
